A study of Mus musculus with 2 samples.

Results

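The CD4+ T cells described here are those that the authors placed in a cluster named non-EM-like, where EM stands for effector memory, and in which at least 1 unique molecular identifier (UMI) came from Cd3d, Cd3e or Cd3g, which encode chains of CD3, or from Trac, Trbc1 or Trbc2, which encode the constant parts of the αβ T cell receptor. There were 1011 such cells (the members) among 7314 cells in all. They comprised 895 of 5470 cells (16.4%) in the WT library and 116 of 1844 cells (6.29%) in the Vsir-/- library. The cells came from kidneys of mice with nephrotoxic serum nephritis (NTN), an antibody-driven injury of the glomerulus. They were profiled by droplet-based single-cell RNA sequencing to compare T cells of mice with and without VISTA, the checkpoint protein that Vsir encodes. The genotype was that of the whole animal, not of T cells alone. Both groups were C57BL/6 mice of 8 weeks, either WT or Vsir-/-, immunized with 200 μg of sheep IgG in complete adjuvant and given 2 μL of sheep nephrotoxic serum per g of body weight 4 days later. The methods give another dose of the serum, describe the mice as male, and state that the Vsir-/- line was derived from frozen sperm of a knockout repository. No other allele is named for either group, and no kidney without nephritis was profiled. Each genotype had 1 library, the number of mice behind it is not given in the sources used here, and cells of 1 library cannot stand in for mice. For that reason no p-values are given, and the intervals below are at the 95% level and cover counting error only.

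Naive CD4+ T cells circulate through blood and lymphoid organs until their receptor meets antigen. They are kept at rest and addressed to lymph nodes by a program in which the transcription factors TCF-1 (Tcf7) and LEF-1 (Lef1) act with KLF2, and the chemokine receptor CCR7 and the egress receptor S1PR1 appear at the surface. After antigen contact, effector memory cells lose this homing program, gain CD44, integrins and inflammatory chemokine receptors, and enter inflamed tissue such as the nephritic kidney.

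The rule on T transcripts removed no WT cell of the cluster and 233 of 349 Vsir-/- cells. Just inside the threshold, 22 Vsir-/- cells and 1 WT cell held exactly 1 T UMI. Of those 22 cells, 3 held a UMI of Ptprc, which encodes the leukocyte antigen CD45, and the kidney tubule markers reached 17812 UMIs per 1000000 UMIs (CPM). Just outside it, 15 of the 233 Vsir-/- cells with 0 T UMIs (6.44%) held Ptprc, and the tubule markers stood at 31459 CPM. Of the 79 Vsir-/- cells with 10 or more T UMIs, 76 (96.2%) held Ptprc, close to 822 of 856 WT cells (96.0%) at the same depth of T transcripts. In these 79 cells the tubule markers stood at 6166 CPM. The kidney endothelial markers followed another order, at 6506 CPM in the 22 cells with 1 T UMI, 3483 CPM in the 233 cells outside and 4068 CPM in the 79 cells. By Ptprc, the cells at the lower edge of the rule were thus nearer to those outside it than to the 79 cells.

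The libraries differed in more than the genotype. By the labels, only the WT library was sorted for CD45 and the Vsir-/- library took in kidney cells of any kind, whereas the methods describe a CD45+ sort for both. Transcripts of Xist, made from the inactive X chromosome, numbered 0 in the WT and 16405 in the Vsir-/- library, and the Y-linked Ddx3y had 1779 and 0 UMIs. An older and a current symbol of the same gene were split between the libraries in 133 pairs, 19 of them with at least 1000 UMIs on each side, such as Aes in WT and Tle5 in Vsir-/- cells, so the libraries were not counted on one annotation. The genotype, the sex-linked difference, the sort and the annotation cannot be told apart. The libraries shared 5 cell barcodes, none of them among the members.

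The targeted gene followed the labels. Over all cells, Vsir had 4278 UMIs (130 CPM) in the WT and 8 UMIs (0.430 CPM) in the Vsir-/- library. Among the members it had 467 UMIs (105 CPM) in WT cells and 2 UMIs (1.64 CPM) in Vsir-/- cells, a log2 ratio of -5.68 with a counting interval from -9.05 to -4.14. A Vsir UMI was found in 41.1% of WT cells (median 5020.5 UMIs) and 1.41% of Vsir-/- cells that passed the stricter rule given below, beside 5.78% of WT B cells (median 3426 UMIs) and 61.5% of WT neutrophils (median 3565 UMIs). No cell type that lacks Vsir was set aside as a background for these shares.

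The WT library held 32799550 UMIs and the Vsir-/- library 18601189. WT members held 4455870 UMIs with a median of 4897 per cell, and Vsir-/- members held 1219083 with a median of 5349.5. In the Vsir-/- library, 15 members with more than 20000 UMIs each carried 55.9% of the members' UMIs, and no WT member was that large. The largest of these cells held 76664 UMIs, against 16030 for the largest WT member. Markers of the kidney tubule summed to 259 CPM in WT and 11371 CPM in Vsir-/- members, and markers of kidney endothelium to 159 and 4745 CPM. Of the 36 tubule genes, 28 were at 0 in WT members and none in Vsir-/- members, where Spp1 was the most abundant. Of the 12 endothelial genes, 7 were at 0 in WT members and none in Vsir-/- members, where Emcn led with 1230 UMIs. Of these genes, 21 tubule and 5 endothelial genes had no UMI in any WT cell of the whole library, as had 144 genes with at least 1000 UMIs in the Vsir-/- library, so these zeros were not particular to the members.

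Because of these cells, every comparison below was also made under a stricter rule that was chosen after the values were seen. It kept members with at least 10 T UMIs, at most 1% of their UMIs in the tubule list and at most 10 UMIs of the endothelial list. This left 856 WT cells with 4380900 UMIs (median 5020.5) and 71 Vsir-/- cells with 373341 UMIs (median 5267, range 2719 to 7972). The 39 WT cells left out carried 1.68% of the WT members' UMIs, and the 45 Vsir-/- cells left out carried 69.4% of theirs. In the cells kept, the endothelial list stood at 159 CPM in WT and 212 CPM in Vsir-/- cells, and macrophage and monocyte markers at 130 and 161 CPM. The tubule list still stood at 258 and 3412 CPM, with Gpx3, a secreted peroxidase of the proximal tubule, listed at 0 in WT cells and found in 87.3% of the Vsir-/- cells. The part of tubule transcripts in the differences below was not tested beyond this rule.

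**Figure D1:**
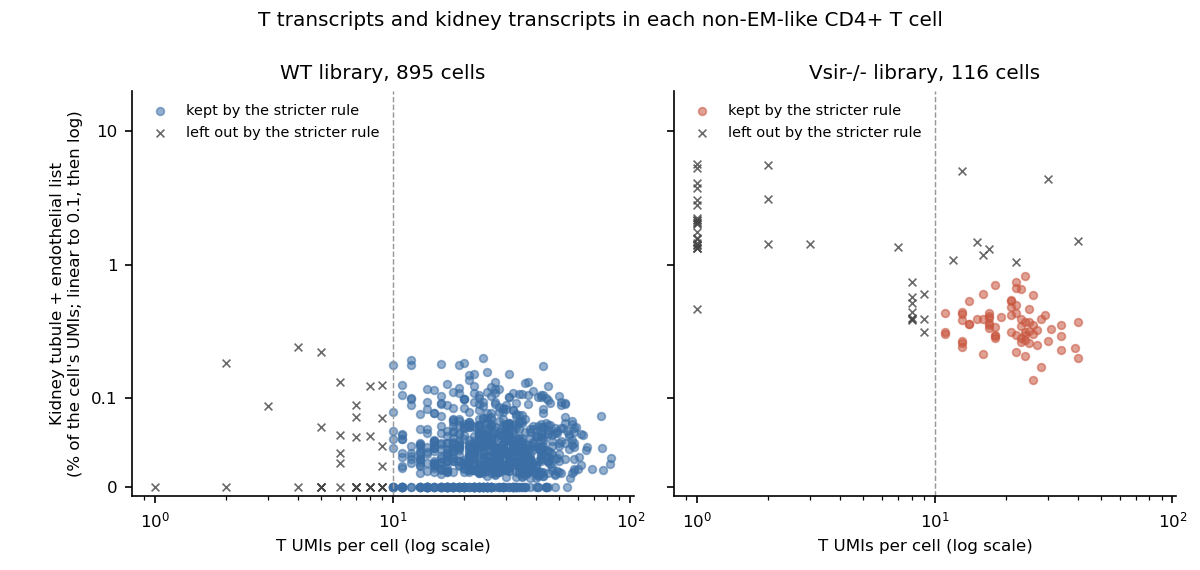
T UMIs per cell (horizontal, log scale) against the share of the cell's UMIs in the kidney tubule and endothelial lists (vertical, %, linear up to 0.1 and logarithmic above) for the 895 WT members (left) and the 116 Vsir-/- members (right). Circles are cells kept by the stricter rule (856 WT and 71 Vsir-/-), crosses are cells left out, and the dashed line marks 10 T UMIs. Nearly all WT cells lie to the right of the line and low, whereas the Vsir-/- library has a second group with few T UMIs and a high kidney share.

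The markers of the label were present in both libraries. At least 1 of Cd4, Lef1, Tcf7 and Igfbp4 was found in 891 WT members (99.6%) and 99 Vsir-/- members (85.3%). It was also found in 119 (51.1%) of the 233 Vsir-/- cells of the cluster with 0 T UMIs. Lef1 and Tcf7, which encode partners of the naive program, occurred together in 82.8% of WT members and 49.1% of Vsir-/- members, and in 84.7% and 69.0% under the stricter rule. Cd4, which encodes the coreceptor, was found in 50.7% of WT members (interval 47.4 to 54.1%) and 37.1% of Vsir-/- members (interval 28.3 to 46.5%). With every cell thinned to 1000 UMIs these shares were 14.5% and 12.2%. Neutrophils, which should lack Cd4, held a Cd4 UMI in 3.24% of 524 WT cells (median 3565 UMIs) and 0% of 158 Vsir-/- cells (median 4097 UMIs). For the latter, a floor of 3 cells would be a share of 1.90%, which is not the limit of an exact interval. The share with Cd4 in the members was above that background in both libraries. Since the members were taken from a cluster named for CD4, this describes the grouping and is no separate evidence of identity. A UMI of Cd8a or Cd8b1, the chains of the CD8 coreceptor, without Cd4 was seen in 7.49% of WT and 6.90% of Vsir-/- members.

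As levels, the identity markers were lower in Vsir-/- cells under either rule. Cd4 stood at 166 CPM in WT and 51.7 CPM in Vsir-/- members, and under the stricter rule at 167 and 134 CPM, a log2 ratio of -0.31 (interval -0.76 to 0.10) that includes 0. Lef1 stood at 659 CPM in WT and 453 CPM in Vsir-/- cells under the stricter rule (log2 ratio -0.54, interval -0.77 to -0.32). Tcf7 stood at 687 and 506 CPM under that rule (log2 ratio -0.44, interval -0.66 to -0.23). Igfbp4, which encodes a binding protein for insulin-like growth factors, showed the widest gap of the 4 under the stricter rule, with 737 CPM in WT and 348 CPM in Vsir-/- cells (log2 ratio -1.08, interval -1.35 to -0.83). Over all members its gap was the smallest of the 4, with a log2 ratio of -0.94 against -1.68 for Cd4, -1.93 for Lef1 and -1.97 for Tcf7. In B cells and neutrophils Igfbp4 went the other way, from 6.03 to 70.5 CPM and from 24.6 to 51.5 CPM, whereas it was lower in non-EM-like CD8+ cells (log2 ratio -1.28, interval -1.74 to -0.88) and in γδ T cells (log2 ratio -2.14, from 17 and 2 UMIs). In NK and EM-like CD4+ cells its log2 ratios were -0.71 and -0.37, with intervals that include 0. The clusters were built from these genes, so the levels are a description of the cells that were grouped.

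The T transcripts that chose the members are given likewise as a description. The median member held 26 T UMIs in the WT and 17 in the Vsir-/- library, and 26 and 22 under the stricter rule. Trbc2 was the most abundant, at 1765 CPM in WT and 1422 CPM in Vsir-/- cells under the stricter rule, and was found in 98.6% of both. In neutrophils a Trbc2 UMI was found in 12.4% of WT and 0.633% of Vsir-/- cells. Trbc1 was lower in Vsir-/- cells (957 and 498 CPM, log2 ratio -0.94), while Cd3g was nearly level (801 and 758 CPM, log2 ratio -0.08). A UMI of both constant genes was held by 62.0% of WT and 52.1% of Vsir-/- cells.

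Across all members, 10400 genes had at least 20 UMIs over both libraries. Of these, 3676 (35.3%) were more than 2-fold higher and 976 (9.38%) more than 2-fold lower in Vsir-/- than in WT members, with a median log2 ratio of 0.51. Centred on that median, 2611 were higher and 1759 lower, and with a denominator that leaves out tubule, ribosomal and mitochondrial genes the counts were 2748 and 1585. Under the stricter rule, 8590 genes passed the filter, 726 (8.45%) were higher and 1000 (11.6%) lower, and the median was -0.02. The excess of higher genes was thus not seen without the 45 Vsir-/- cells left out by that rule. The largest ratios among all members belonged to genes of the nephron and its vessels or of many cell types, among them Sdc4 (4 and 496 UMIs), Cd63 (5 and 569), Serpine2 (7 and 600) and Flt1, the endothelial receptor for VEGF (5 and 332). Under the stricter rule Serpine2 and Flt1 kept 3 UMIs each in Vsir-/- cells.

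**Figure D2:**
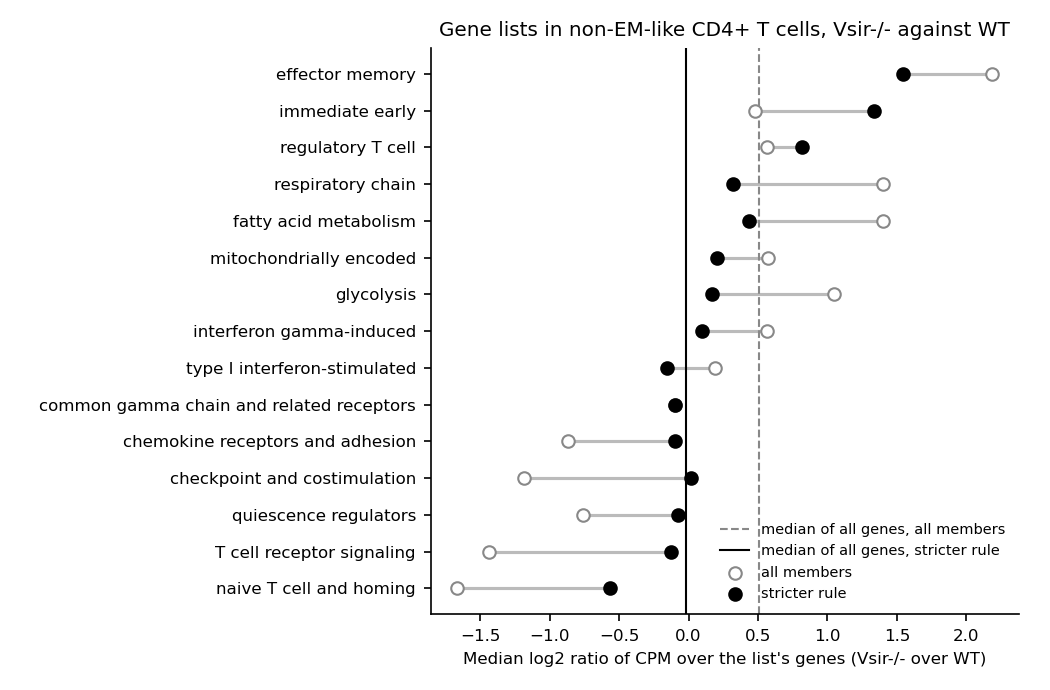
Median log2 ratio of CPM (Vsir-/- over WT, horizontal) over the genes of 15 lists with at least 20 UMIs. Open circles are all members, filled circles the cells kept by the stricter rule, and the vertical lines are the medians of all genes (dashed, 0.51, all members; solid, -0.02, stricter rule). The lists with the highest medians under the stricter rule are effector memory (1.54) and immediate early (1.33), and the lowest is naive T cell and homing (-0.57).

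The naive and homing list had a lower sum in Vsir-/- cells, less so under the stricter rule. Its 30 genes summed to 12980 CPM in WT and 5399 CPM in Vsir-/- members, with a median log2 ratio of -1.67, no gene more than 2-fold higher and 21 more than 2-fold lower, beside 35.3% and 9.38% of all genes. Under the stricter rule the sums were 13006 and 11081 CPM, the median was -0.57, and 1 gene was higher and 5 were lower, shares of the list near the 8.45% higher and 11.6% lower of all genes. Per cell, the list took a median of 1.30% of the UMIs in WT and 1.08% in Vsir-/- cells under that rule, against 0.544% and 0.382% in EM-like CD4+ cells. Since the clusters were built from such genes, the gap to EM-like cells is part of how the members were chosen.

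Within that list the genes did not move as a block. Dapl1, a transcript of naive T cells, had 1414 UMIs (323 CPM) in WT and 30 UMIs (80.4 CPM) in Vsir-/- cells under the stricter rule, a log2 ratio of -1.98 (interval -2.58 to -1.49). It was found in 44.2% of WT and 11.3% of Vsir-/- cells, and 1 Vsir-/- cell held 33.3% of its UMIs. Satb1, a chromatin organizer of T cells, stood at 953 and 504 CPM (log2 ratio -0.92, interval -1.14 to -0.71). Ccr7, the receptor that guides T cells into lymph nodes, stood at 407 and 268 CPM (log2 ratio -0.60, interval -0.91 to -0.31). S1pr1, the receptor for egress into lymph and blood, stood at 369 and 343 CPM with an interval of the log2 ratio from -0.38 to 0.16. Klf2, which drives S1pr1, went the other way, at 1280 and 2336 CPM (log2 ratio 0.87, interval 0.76 to 0.97), and Gramd3 was the 1 gene of the list past 2-fold higher (102 and 230 CPM, log2 ratio 1.18). Il7r, the receptor chain for the survival cytokine IL-7, stood at 478 and 651 CPM (log2 ratio 0.45). Among all members Klf2 was level at 1278 and 1263 CPM and Il7r was lower in Vsir-/- cells, at 478 and 224 CPM. In non-EM-like CD8+ cells, log2 ratios lay close to those under the stricter rule for Klf2 (0.86), Satb1 (-0.93), Ccr7 (-0.65), Lef1 (-0.52) and Tcf7 (-0.39). Il7r, higher in the members under that rule, was lower there (-0.48, interval -0.74 to -0.25). S1pr1 stood at -0.45 (interval -0.85 to -0.10) and Dapl1 at -0.73. These differences between cell types were not tested.

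Genes of T cell receptor signaling and of quiescence lay near the median of all genes under the stricter rule. The 30 signaling genes had a median log2 ratio of -1.43 over all members, with 21 more than 2-fold lower, beside 9.38% of all genes. With the stricter rule the median was -0.12, with 1 higher and 2 lower, beside 8.45% and 11.6% of all genes. The higher one was Ubash3a, a phosphatase that restrains receptor signaling, with 92 UMIs in WT and 23 UMIs (61.6 CPM) in Vsir-/- cells (log2 ratio 1.58), and Themis, a thymocyte selection factor, stood at 136 and 56.2 CPM. The 24 measured quiescence regulators had medians of -0.76 and -0.08. Btg1, an antiproliferative factor and the most abundant of them, stood at 2015 and 2087 CPM under the stricter rule, and Klf6 was the 1 gene past 2-fold (349 and 731 CPM).

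Among the lists of T cell genes, the effector memory list lay furthest above all genes in Vsir-/- cells under either rule. Over all members its 26 genes past the filter had a median log2 ratio of 2.18, with 17 more than 2-fold higher and 1 lower, beside 35.3% and 9.38% of all genes. The list summed to 1684 CPM in WT and 5361 CPM in Vsir-/- members. Of its 6535 UMIs in Vsir-/- members, only 1255 were in cells kept by the stricter rule, so most lay in the cells left out. Under the stricter rule 24 genes passed, 17 were higher and none lower, the median was 1.54, and the list summed to 1682 CPM in WT and 3362 CPM in Vsir-/- cells. Set against the 8.45% of all genes that were past 2-fold higher, the 17 genes made up most of the list. EM-like CD4+ cells held far more of these transcripts, 19439 CPM in WT and 18697 CPM in Vsir-/- mice, with a list median of -0.09 between the genotypes.

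S100a4, a calcium-binding protein of memory T cells, had the largest ratio of the list under the stricter rule, among genes with at least 4 UMIs in each library. It had 30 UMIs (6.85 CPM) in WT and 93 UMIs (249 CPM) in Vsir-/- cells under the stricter rule, a log2 ratio of 5.17 (interval 4.58 to 5.83). It was found in 2.92% of WT and 21.1% of Vsir-/- cells, or 0.35% and 12.7% after thinning to 1000 UMIs. In B cells the unthinned shares were 3.30% of 969 WT cells (median 3426 UMIs) and 14.8% of 88 Vsir-/- cells (median 3596.5 UMIs), and in neutrophils 10.7% and 6.96%. The share in WT members was therefore at or below that of B cells, and the share in Vsir-/- members was higher than in Vsir-/- B cells with overlapping intervals (12.3 to 32.4% and 8.11 to 23.9%).

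Large ratios were also seen for Bhlhe40, a transcription factor of activated T cells (19 and 20 UMIs, log2 ratio 3.62), and for Itgb1, Rora and S100a6. Itgb1, the β1 integrin chain, stood at 24.0 CPM in WT and 185 CPM in Vsir-/- cells under the stricter rule (log2 ratio 2.95, interval 2.49 to 3.40). Rora, a nuclear receptor of helper and innate lymphocytes, stood at 13.9 and 107 CPM (log2 ratio 2.95, interval 2.33 to 3.54). S100a6, another S100 protein, stood at 29.4 and 174 CPM (log2 ratio 2.57). Cd44, the hyaluronan receptor that marks antigen-experienced T cells, had 53 UMIs (12.1 CPM) in WT and 18 UMIs (48.2 CPM) in Vsir-/- cells (log2 ratio 2.02, interval 1.14 to 2.79). Cxcr3, a receptor for interferon-induced chemokines, had 1 UMI in WT and 21 UMIs in Vsir-/- cells, a log2 ratio of 7.39 with an interval from 5.31 to 13.31.

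Several effector memory genes lay near or below a ratio of 1 under the stricter rule, or had too few UMIs to give a direction. Crip1, the most abundant gene of the list in WT cells, stood at 520 CPM in WT and 423 CPM in Vsir-/- cells (log2 ratio -0.29), and Vim, which encodes vimentin, at 201 and 222 CPM (log2 ratio 0.15). Ccl5, a chemokine of effector T cells, stood at 90.4 and 58.9 CPM (log2 ratio -0.59, interval -1.31 to 0.00). Over all members Ccl5 and Vim were higher in Vsir-/- cells, with log2 ratios of 0.33 (interval 0.04 to 0.61) and 0.97 (interval 0.81 to 1.13), and Crip1 was lower at -0.62. Fasl, a death ligand, had 28 UMIs in WT and 1 in Vsir-/- cells, a log2 ratio of -0.70 with an interval from -6.61 to 1.34. Tbx21, which encodes the Th1 regulator T-bet, had 13 and 0 UMIs, the latter being under the floor of 3 counts at a depth of 373341 UMIs. The cytotoxic gene Gzmk had 0 and 1 UMI.

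**Figure D3:**
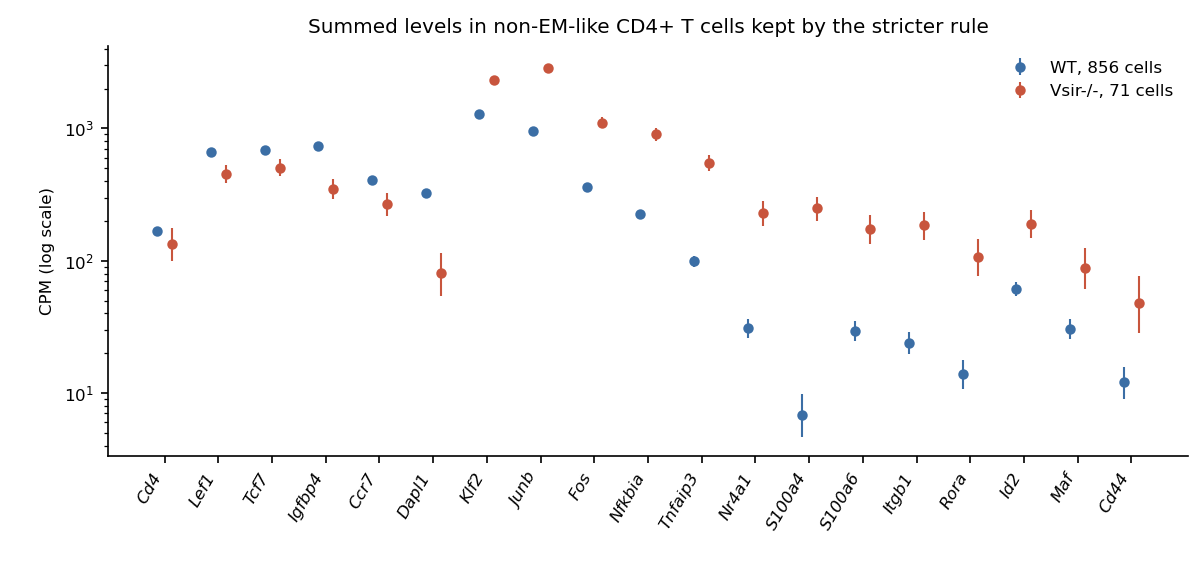
Summed level (CPM, vertical, log scale) of 19 genes in the 856 WT and the 71 Vsir-/- cells kept by the stricter rule, with Poisson intervals. From left to right are identity, homing, immediate early and effector memory genes. Igfbp4 and Dapl1 lie lower in Vsir-/- cells, and Tnfaip3, Nr4a1, S100a4, Itgb1 and Rora lie higher by more than the intervals.

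Some of these ratios were also seen in other cells. In EM-like CD4+ cells the log2 ratio was 0.41 for S100a4, 0.06 for Itgb1, 0.19 for Rora and 0.01 for S100a6. In B cells it was 2.71 for S100a4 (58 and 57 UMIs), 3.11 for Itgb1 (85 and 111 UMIs) and 5.36 for Rora (2 and 15 UMIs, under the filter of 20, interval 3.53 to 8.81), and the effector memory list had a median of 0.83. In Vsir-/- B cells, 7 of 88 cells with more than 20000 UMIs held 45.0% of the UMIs. In neutrophils the log2 ratio was -1.88 for S100a4 and -0.03 for Itgb1, and in non-EM-like CD8+ cells 1.67 and 0.39. The difference between the cell types was not tested.

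**Figure D4:**
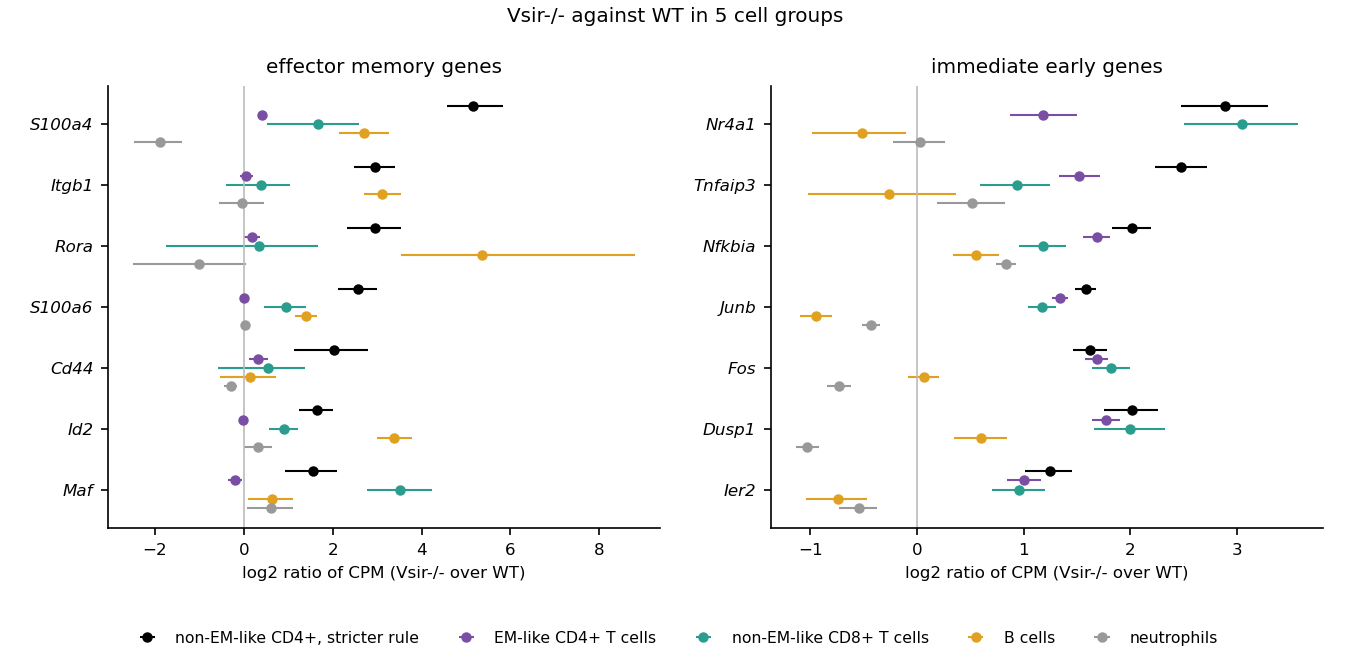
log2 ratio of CPM (Vsir-/- over WT, horizontal) of 7 effector memory genes (left) and 7 immediate early genes (right) in 5 cell groups, with exact counting intervals. For S100a4 the non-EM-like CD4+ cells lie at 5.17 and EM-like CD4+ cells at 0.41, and for Fos the CD4+ and CD8+ groups lie between 1.62 and 1.82 while B cells lie at 0.06 and neutrophils at -0.73.

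The effector memory transcripts were concentrated in part of the Vsir-/- cells. Under the stricter rule the list took a median of 0.143% of a cell's UMIs in WT and 0.169% in Vsir-/- cells, while the upper quartiles were 0.211% and 0.423% and the 90th percentiles 0.289% and 1.02%. The median cell was thus similar in both libraries, and the upper tail was longer in the Vsir-/- library. In EM-like CD4+ cells the medians were 1.82% and 1.74%.

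To describe this tail, the cells were divided by whether they held an S100a4 UMI, a division chosen after the values were seen. In the Vsir-/- library 15 cells held one and 56 did not, and in the WT library 25 did and 831 did not. In Vsir-/- cells with S100a4, Itgb1 stood at 636 CPM against 67.5 CPM in those without. Rora stood at 467 and 13.5 CPM, S100a6 at 571 and 70.9 CPM, and Cd44 at 182 and 13.5 CPM. Cxcr3 had 18 UMIs (234 CPM) in the 15 cells with S100a4 and 3 UMIs (10.1 CPM) in the 56 without, and Ccr2, a receptor for monocyte chemoattractants, had 8 and 0. The homing genes ran the other way, since Igfbp4 had 2 UMIs (26.0 CPM) with S100a4 and 128 (432 CPM) without, and Ccr7 had 6 (77.9 CPM) and 94 (317 CPM). Lef1 stood at 195 and 520 CPM, whereas Tcf7 was nearly level at 467 and 516 CPM and Il7r at 675 and 645 CPM. In these 15 cells, high integrin and S100 transcripts thus coincided with low Ccr7 and Igfbp4. The proximal tubule transcript Kap had 4 UMIs (51.9 CPM) in them and 48 (162 CPM) in the other 56.

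WT cells with an S100a4 UMI did not show this combination. Igfbp4 stood at 698 CPM in the 25 WT cells with S100a4 and 738 CPM in the 831 without, Ccr7 at 410 and 407 CPM, and Itgb1 at 44.8 and 23.2 CPM. Ccl5 (845 and 62.5 CPM) and S100a6 (115 and 26.3 CPM) were higher in the cells with S100a4. These 25 cells held 30 S100a4 UMIs, about 1 each, whereas the 15 Vsir-/- cells held 93. Since the share of WT members with S100a4 was at or below that of B cells, this division cannot show whether the WT library held such cells.

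In the cells without an S100a4 UMI, 831 WT and 56 Vsir-/- cells, the immediate early list described below had a median log2 ratio of 1.04, beside -0.07 over all 8465 genes. Of its 29 genes, 15 were more than 2-fold higher, against 7.35% of all genes. The regulatory T cell list, also described below, had a median of 0.43, with 3 of 15 genes higher and 2 lower. With the S100a4 cells included, its median was 0.82 and 7 of 15 genes were higher. The naive and homing list had a median of -0.37, with 1 of 30 genes higher and 2 lower. Of all genes, 7.35% were higher and 13.8% lower. No value is drawn from the effector memory list in these cells, since its gene with a very large ratio decided which cells were left out.

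**Figure D5:**
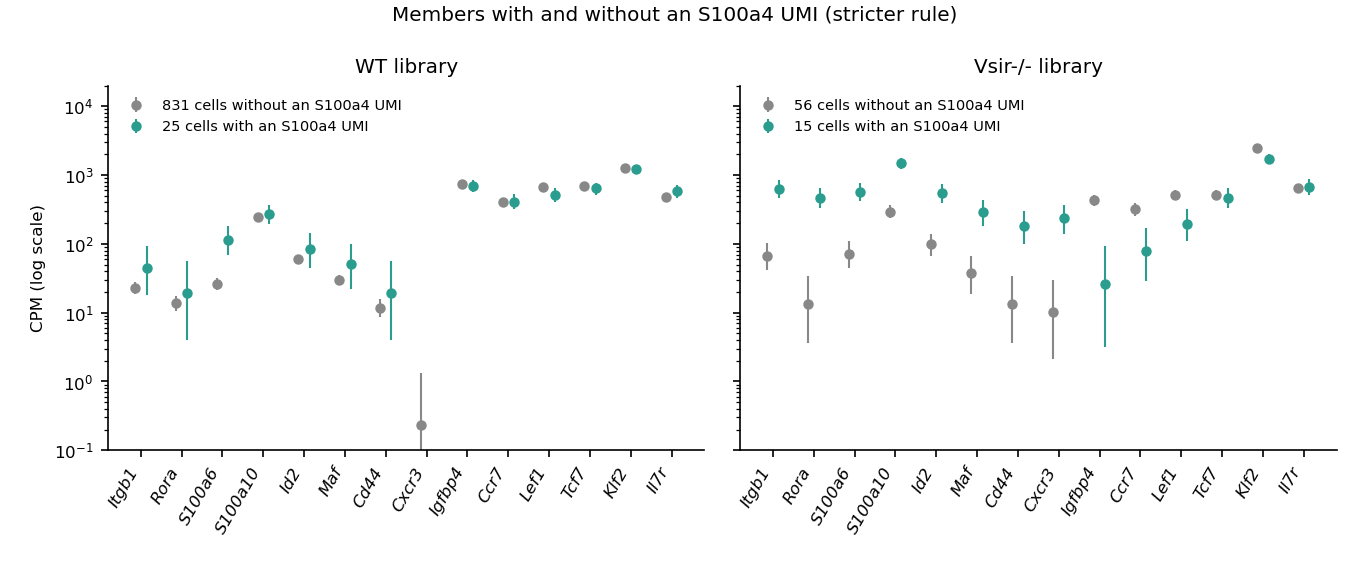
Summed level (CPM, vertical, log scale) of 14 genes in cells with (green) and without (grey) an S100a4 UMI, for the 856 WT (left) and the 71 Vsir-/- cells (right) kept by the stricter rule, with Poisson intervals. Cxcr3 had 0 UMIs in the 25 WT cells with S100a4 and is not drawn there. In the Vsir-/- panel Itgb1, Rora and Cxcr3 lie higher and Igfbp4 and Ccr7 lower in the 15 cells with S100a4, and in the WT panel the homing genes overlap.

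Immediate early genes, which are transcribed within minutes of a stimulus and also during enzymatic digestion of tissue, were higher in Vsir-/- cells under the stricter rule. The 29 genes past the filter had a median log2 ratio of 1.33, 20 were more than 2-fold higher and 1 lower, beside 8.45% and 11.6% of all genes, and the list summed to 6332 CPM in WT and 14751 CPM in Vsir-/- cells. The 1 gene counted as lower was Egr3, which had 0 UMIs in Vsir-/- cells. With Egr3 set to a floor of 3 UMIs, the median was 1.31. Over all members the median was 0.48, just below that of all genes, with 10 of 30 genes higher and 2 lower, near the 35.3% and 9.38% of all genes, and centring on the median of all genes turned it to -0.03. Kidneys were digested with liberase at 0.2 mg/mL and 37°C over 30 minutes, and the part of digestion in these differences was not tested.

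The list holds AP-1 genes and feedback inhibitors of NF-κB. Junb stood at 962 CPM in WT and 2879 CPM in Vsir-/- cells (log2 ratio 1.58, interval 1.48 to 1.68), Fos at 358 and 1104 CPM (log2 ratio 1.62), and Jun at 507 and 1358 CPM (log2 ratio 1.42). Jund, the least inducible of that family, stood at 1045 and 1575 CPM (log2 ratio 0.59). Nfkbia, which encodes the inhibitor IκBα, stood at 224 and 903 CPM (log2 ratio 2.01), and Tnfaip3, which encodes the deubiquitinase A20, at 99.3 and 552 CPM (log2 ratio 2.48, interval 2.23 to 2.72). Tnfaip3 was found in 33.1% of WT and 81.7% of Vsir-/- cells, or 7.71% and 35.2% after thinning to 1000 UMIs, beside 13.7% and 12.5% of B cells and 27.3% and 37.3% of neutrophils without thinning. Nr4a1, a nuclear receptor induced by T cell receptor signals, stood at 30.8 and 228 CPM (log2 ratio 2.89, interval 2.48 to 3.29) and was found in 12.5% and 54.9% of cells, against 45.0% and 57.0% of neutrophils. Cd69, an early activation marker that retains T cells in tissue, stood at 401 and 828 CPM (log2 ratio 1.05), but over all members it was lower in Vsir-/- cells, at 403 and 284 CPM (log2 ratio -0.51, interval -0.68 to -0.34). Egr3, another gene induced by receptor signals, had 62 UMIs in WT and 0 in Vsir-/- cells. The latter was under the floor of 3 counts at a depth of 373341 UMIs, so Egr3 gave no direction. Egr1 stood at 82.4 and 107 CPM with an interval of the log2 ratio from -0.13 to 0.85.

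In other T cells and in NK cells the same list had a median above 0. The median log2 ratio was 0.86 in EM-like CD4+ cells, 0.97 in non-EM-like CD8+ cells, 1.07 in γδ T cells and 0.48 in NK cells. In B cells it was -0.26 and in neutrophils -0.54. The medians of all genes lay between -0.06 and 0.07 in these 6 groups. The digestion and heat shock list had medians of 0.50 over all members and 0.51 under the stricter rule, led by the inducible chaperone Hspa1a (144 and 536 CPM), which was more than 2-fold higher in 9 of 12 other clusters as well.

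Genes of regulatory T cells gave a median log2 ratio of 0.57 over all members, near the 0.51 of all genes (0.06 when centred on it). Under the stricter rule their median was 0.82, or 0.80 with a gene at 0 set to the floor. Among 15 genes, 7 were then more than 2-fold higher and 2 lower, beside 8.45% higher and 11.6% lower of all genes. The 7 were Tnfrsf4, Nrp1, Il2rb, Rgs1, Capg, Ctla4 and Nt5e. Several of them, such as Tnfrsf4, Rgs1 and Ctla4, are also made by activated conventional T cells, so the 7 do not mark regulatory T cells by themselves. Tnfrsf4, which encodes the costimulatory receptor OX40, had 22 UMIs in WT and 19 in Vsir-/- cells (5.02 and 50.9 CPM, log2 ratio 3.35), Rgs1, a regulator of chemokine responses, stood at 42.7 and 137 CPM, and Nrp1, also an endothelial receptor, at 4.57 and 40.2 CPM. Izumo1r, the folate receptor FR4, was lower, at 91.8 and 26.8 CPM (log2 ratio -1.71). Ikzf4, the other of the 2 counted as lower, had 35 and 0 UMIs. The latter was under the floor of 3 counts at a depth of 373341 UMIs, so Ikzf4 gave no direction. Foxp3, the defining factor of the lineage, was found in 14 WT members (1.56%, interval 0.858 to 2.61%) and 3 Vsir-/- members (2.59%, interval 0.537 to 7.37%), beside 0.573% and 0.633% of neutrophils, with overlapping intervals.

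The 14 WT cells with Foxp3 nonetheless carried other genes of the lineage. Ikzf2, which encodes Helios, stood at 507 CPM in them and 21.4 CPM in the other 881 WT members. Il2ra, the high-affinity IL-2 receptor chain, had 13 UMIs in the 14 cells and 7 in the other 881 (220 and 1.59 CPM). Ctla4, an inhibitory receptor, stood at 304 and 8.42 CPM, and Gpr83 at 237 and 10.9 CPM. Lef1 stood at 389 and 661 CPM and Igfbp4 at 338 and 734 CPM. The WT members thus held a small set of cells with several regulatory T cell transcripts together. In the 3 Vsir-/- cells, Ikzf2 had 12 and Ctla4 13 UMIs, and Ccr7 and Cd4 had none. One of them was a cell of 57413 UMIs with 790 UMIs of the endothelial list and 84 of Nrp1, and it held all 13 Ctla4 and 4 of the Ikzf2 UMIs. The other 2, with 4257 and 3735 UMIs, passed the stricter rule and held 8 Ikzf2 and 0 Ctla4 UMIs.

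Lineage and cytokine genes were sparse. The 13 helper lineage regulators past the filter had medians of -0.23 and -0.02, with Maf, a factor of several helper subsets, higher at 30.6 and 88.4 CPM under the stricter rule, and Tox lower at 83.8 and 37.5 CPM. Of 18 cytokine genes, 6 passed the filter, and their medians were -1.67 and -0.49. Ltb, a lymphotoxin chain, was by far the most abundant at 556 and 442 CPM, and Tnf had 85 and 3 UMIs. The 16 checkpoint and costimulation genes had medians of -1.19 and 0.02, with Cd28 at 277 and 254 CPM and Selplg, which encodes the adhesion molecule PSGL-1, at 331 and 260 CPM. Common γ chain and related receptors had medians of -0.10 under both rules, and Il2rb, a chain of the IL-2 and IL-15 receptors, stood at 16.7 and 58.9 CPM. Chemokine receptors and adhesion genes had medians of -0.87 and -0.10.

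The medians of the interferon lists lay near those of all genes under the stricter rule. The type I list had 12 of 39 genes more than 2-fold higher and 6 lower over all members (median 0.19), beside 35.3% and 9.38% of all genes. It had 0 of 38 higher and 3 lower under the stricter rule (median -0.16, or -0.19 with a gene at 0 set to the floor), beside 8.45% and 11.6%. Ifi27l2a, the most abundant, stood at 1130 and 1251 CPM under the stricter rule but at 1135 and 575 CPM over all members (log2 ratio -0.98, interval -1.10 to -0.87). Slfn8 was lower at 69.2 and 16.1 CPM under the stricter rule, as it was in 8 of 12 other clusters. Rsad2, an antiviral enzyme, had 22 and 308 UMIs over all members but 21 and 2 under the stricter rule. The list of genes induced by interferon γ had medians of 0.56 and 0.10, with 10 of 33 genes more than 2-fold higher and 0 lower over all members, beside 35.3% and 9.38% of all genes, and 6 of 32 higher and 0 lower under the stricter rule, beside 8.45% higher and 11.6% lower of all genes. H2-K1, a class I antigen-presenting molecule, stood at 1958 and 1851 CPM under the stricter rule. Cxcl10, a chemokine that binds CXCR3, had 5 UMIs in WT and 16 in Vsir-/- cells, and 1 cell held 56.2% of the latter.

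Respiratory chain, fatty acid and glycolysis genes had medians above that of all genes in Vsir-/- members and lay nearer to it under the stricter rule. Of 77 respiratory chain genes, 59 were more than 2-fold higher in Vsir-/- members (median 1.40), beside 35.3% of all genes. In the cells kept by the stricter rule 3 were (median 0.32, or 0.30 with a gene at 0 set to the floor), a share below the 8.45% of all genes. The list summed to 14306 and 33913 CPM over all members and to 14313 and 17676 CPM under the stricter rule. Cox4i1, a subunit of cytochrome oxidase, stood at 669 and 1254 CPM over all members and 671 and 707 CPM under the stricter rule. The fatty acid list had medians of 1.40 and 0.43, and the glycolysis list 1.05 and 0.17. Under the stricter rule, 8 of 47 fatty acid genes were more than 2-fold higher and 3 lower. Of 19 glycolysis genes, 4 were higher and 1 lower. In both lists the share of higher genes was above the 8.45% of all genes, unlike in the respiratory chain list. The mitochondrially encoded genes had medians of 0.58 and 0.20, beside 0.51 and -0.02 for all genes, and so did not lie nearer under the stricter rule. Ldhb, which is also on the tubule list, stood at 26.0 and 161 CPM under the stricter rule and was more than 2-fold higher in 11 of 12 other clusters. Hadhb, an enzyme of fatty acid β-oxidation, stood at 81.3 and 80.4 CPM. In B cells the respiratory chain list summed to 13384 CPM in WT and 24837 CPM in Vsir-/- mice. Its median was 0.91 in neutrophils, 0.49 in non-EM-like CD8+ cells and 0.30 in EM-like CD4+ cells.

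Ribosomal protein genes took 424689 CPM in WT and 213756 CPM in Vsir-/- members, and 424755 and 405659 CPM under the stricter rule, with medians of -0.95 and -0.07. Cell cycle genes had medians of 0.77 and 0.37, and Mki67 had 5 UMIs in WT and 3 in Vsir-/- cells under the stricter rule. Class II antigen presentation genes, which T cells of the mouse hardly make, had medians of 2.36 and 1.05. Other lineages stood below the tubule list (258 and 3412 CPM) under the stricter rule. B cell markers stood at 22.6 and 8.04 CPM, neutrophil markers at 236 and 104 CPM, and NK cell markers at 69.8 and 16.1 CPM. ILC2 markers stood at 51.4 and 56.2 CPM, glomerular and stromal markers at 8.22 and 50.9 CPM, and CD8 markers at 38.8 and 24.1 CPM. Markers of γδ T cells had 92 and 7 UMIs, and erythrocyte and platelet markers 0 and 4 UMIs.

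The 10 largest ratios under the stricter rule, among 4315 genes ranked, mixed T cell genes with genes that differed everywhere. Nme2 (6.85 and 715 CPM), Tomm6 (16.7 and 161 CPM) and Rpl13a (1116 and 6959 CPM) were more than 2-fold higher in 12 of 12 other clusters too. Nr4a1 was so in 4 of 12, S100a4 in 4, Itgb1 and Tnfaip3 in 2, and Rora and S100a6 in 1, counting only clusters in which the gene had at least 20 UMIs. Of the 10 smallest, Gstp1 (68.5 and 16.1 CPM) was more than 2-fold lower in 12 of 12 other clusters, and Erh in 10. Gpr18, a receptor of lymphocytes, had 345 and 6 UMIs and was lower in 5 of 12, and Ift80 had 354 and 6 UMIs and was lower in 2. Pdk1, a kinase that limits pyruvate oxidation, had 565 UMIs (129 CPM) and 12 UMIs (32.1 CPM) and was likewise lower in 2.

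The members were also set beside EM-like CD4+ cells of the same library. That group was mixed, since 19.2% of its WT and 16.5% of its Vsir-/- cells held a Cd8a or Cd8b1 UMI without Cd4. In the members these shares were 7.49% and 6.90%. The comparison is thus not one of CD4+ cells alone. Among 5937 genes, 66 (1.11%) were more than 2-fold higher and 303 (5.1%) more than 2-fold lower in the members of both libraries, and under the stricter rule 55 (1.18%) and 498 (10.7%) of 4654. Ccr7 had 1782 UMIs (407 CPM) in the 856 WT members and 114 UMIs in the 484 WT EM-like cells, a log2 ratio of 3.31, and stood at 268 and 3.17 CPM in the Vsir-/- library (log2 ratio 6.27). Lef1 stood at 659 and 94.9 CPM in WT and 453 and 29.8 CPM in Vsir-/- mice. Igfbp4, Rflnb, Actn1, Il6ra, Trib2, Cmah, Gm12840 and S1pr1 were the rest of the 10 largest under the stricter rule, and over all members Tgfbr3, Acvrl1, Myo10, Cnn3 and Ly6c1 were among them. The 10 smallest under the stricter rule were the chemokine and cytokine genes Xcl1, Ccl1 and Il17a, the chemokine receptors Cxcr3, Cxcr6 and Ccr2, the lectin receptors Klrc1 and Klrc2, and Nrgn and Serpina3g. Xcl1, a chemokine of activated lymphocytes, stood at 2.51 and 1448 CPM in WT mice and at 0 and 772 CPM in Vsir-/- mice, and Il17a had no UMI in the members of either library against 29.5 and 256 CPM in EM-like cells. Cxcr3 stood at 0.228 and 234 CPM in WT mice but at 56.2 and 206 CPM in Vsir-/- mice. Since the clusters were defined from these genes, the comparison describes the grouping.

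Beside non-EM-like CD8+ cells, few genes differed in both libraries, 47 higher (1.16%) and 26 lower (0.644%) of 4035, or 9 (0.525%) and 15 (0.875%) of 1714 under the stricter rule. Cd4 stood at 167 and 3.56 CPM in WT mice and at 134 and 0 CPM in Vsir-/- mice. Trat1, a T cell receptor adaptor, stood at 134 and 18.8 CPM in WT and 134 and 16.7 CPM in Vsir-/- mice, and Igfbp4 at 737 and 280 CPM and at 348 and 114 CPM. Cd40lg, the helper ligand for B cells and phagocytes, was among the largest over all members (76.5 and 2.37 CPM in WT mice, 50 and 0 UMIs in Vsir-/- mice). The others higher under the stricter rule were Tmem64, Trib2, Dusp10, Retreg1, Nrip1 and Gm12840, and Ly6c1, Myo10, Ecm1, Cd200 and Cd81 were among the 10 largest over all members. The 10 smallest under the stricter rule included the coreceptor genes Cd8a and Cd8b1, Ccl5, Nkg7 and Klrd1 of cytotoxic cells, and Ly6c2, Plac8 and Fxyd4.

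Variable segments of the T cell receptor β chain were sparsely counted. WT members held 166 UMIs of 18 Trbv genes in 141 cells (15.8%), with Trbv2 in 22 cells and Trbv12-2 in 23. Vsir-/- members held 10 UMIs of 6 Trbv genes in 8 cells (6.90%). Most cells thus held no Trbv UMI, and the Vsir-/- cells that did were too few to show whether any receptor was frequent.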

How the data were processed

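Per the submitters' processing notes, reads were processed with Cell Ranger 3.1.0, Seurat 3.2.3 and R 4.0.3 (build mm9). The authors deposited UMI counts per gene and cell, keeping genes in at least 5 cells and cells with at least 200 UMIs and at most 10% mitochondrial UMIs, together with the cluster names and the mitochondrial percent of each cell. The table of cells also held 2 plot coordinates, which were not used. Doublet removal is not given in the sources used here, and none was done. UMI counts were summed per library and cell group and divided by the summed UMIs (CPM, per 1000000). Log2 ratios used 0.5 UMIs added to each sum and genes with at least 20 UMIs over both libraries, and a call was a ratio past 2-fold. Intervals of levels are exact Poisson, of ratios exact conditional binomial and of shares exact Clopper-Pearson intervals (95%). Shares were also computed after thinning to 1000 UMIs. Genes were named by a rule: the identity and T transcripts, the 10 largest and 10 smallest ratios among genes with at least 100 UMIs and 4 in each library, the 3 most abundant genes and the extremes of each of 34 lists, the 10 extremes beside either neighbouring cell group among genes with at least 50 UMIs, and Vsir. Further genes of the lists were chosen after their values were seen, as were the stricter rule and the division by S100a4. The members and the lists were chosen with earlier results of these data known. Alternatives covered the cells kept, depth, weighting, denominator, filter, centring and pseudocount. Python 3.11.15, numpy 2.4.6, scipy 1.17.1, pandas 2.3.3 and matplotlib 3.10.9 were used, and the computation was tested on simulated data. A few genes are not reported here.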

Additional observations from a re-analysis of the deposited data

How the results depend on the processing

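No paired analysis was possible because each genotype has 1 library. Each of 10 results (genes past 2-fold higher and lower, and the median log2 ratios of 8 lists) was recomputed under 18 alternatives, of which 5 were chosen after seeing the data. Of 180 values, 129 stayed within 1.5 times the reported count or within the range set for a median, 51 moved, and 0 of the medians past 2-fold changed sign. Counting medians of any size, 1 changed sign, that of immediate early genes, from 0.48 to -0.03 when centred on the median of all genes. Of 50 values for single genes and shares, 33 stayed and 17 moved. The values with all members were 3676 genes higher, 976 lower, and medians of -1.67 (naive T cell and homing), -1.43 (T cell receptor signaling), 0.57 (regulatory T cell), 2.18 (effector memory), 1.40 (respiratory chain), 1.40 (fatty acid metabolism), 0.48 (immediate early) and 9.76 (kidney tubule markers, or 7.42 with genes at 0 set to the floor). With at least 3 T UMIs, 2247 genes were higher and the medians were -0.74 for receptor signaling, 0.80 for the respiratory chain and 9.12 for tubule markers, and with at least 10 T UMIs 2278 genes were higher and receptor signaling stood at -0.78. With at most 5% mitochondrial UMIs the tubule median was 9.02. With at most 1% tubule UMIs, the respiratory chain and fatty acid medians were both 0.78 and the tubule median 8.85. With at most 1 UMI of other lineages, 611 genes were higher and the medians were -0.60 (naive), -0.31 (receptor signaling) and 1.24 (immediate early). Thinned to 1000 UMIs, 712 genes were higher and 548 lower, with medians of -0.83 (naive), -0.67 (receptor signaling), 0.58 (fatty acid), 1.13 (immediate early) and 8.57 (tubule). As a mean of per-cell CPM, the naive median was -0.94 and that of receptor signaling -0.64. Without tubule, ribosomal and mitochondrial genes in the denominator 1585 genes were lower, and centred on the median of all genes 1759. With at least 100 UMIs per gene, 1384 were higher and 563 lower with a tubule median of 10.9, and with at least 1 UMI per gene 7690 were higher and 1597 lower. A pseudocount of 1 gave a tubule median of 8.76. Under the stricter rule 726 genes were higher, with medians of -0.57 (naive), -0.12 (receptor signaling), 1.54 (effector memory), 0.32 (respiratory chain), 0.43 (fatty acid) and 1.33 (immediate early), and with genes at 0 in a whole library also left out 680 genes were higher, the respiratory chain stood at 0.31 and the other 5 medians were unchanged to 2 decimals. With cells of at most 20000 UMIs, 1395 genes were higher and the medians were -0.86 (naive), -0.49 (receptor signaling), 0.79 (respiratory chain), 0.77 (fatty acid) and 1.19 (immediate early). The cause of these moves was not tested. The effector memory median ranged from 1.54 to 2.54 over the alternatives. With 1 library per genotype no spread between mice is known, and differences in sort, annotation and sex-linked transcripts cannot be told apart from the genotype. The Vsir-/- cells kept by the stricter rule numbered 71, so ratios of genes with 3 UMIs or fewer there are imprecise, and the genes counted as lower include such genes.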
